A study of Arabidopsis thaliana with 12 samples.

Results

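The Calvin-Benson cycle and photorespiration were followed here through 34 nuclear genes of Arabidopsis thaliana, chosen by locus identifier. Of these, 19 belong to the Calvin-Benson cycle (16 for its enzymes and 3 for CP12 proteins, with Rubisco and its activase left out) and 15 belong to photorespiration. They are 34 of the 28775 genes counted in each library, or of the 26789 that are protein-coding. Names were found in the RefSeq gene table for 30 members. AT1G56190 of the Calvin-Benson cycle and AT1G11860, AT1G32470 and AT1G80380 of photorespiration are given by identifier.

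Ribosome-protected fragments (RPF), the pieces of mRNA that a ribosome shields from nuclease, and total RNA depleted of plant rRNA were sequenced from whole rosettes of Col-0 plants. High-light (HL) plants had 10 min at 800 µmol photons per square metre and second before a midday harvest, and low-light (LL) plants none. Both had grown for 3 weeks in days of 10 h at 80 to 100 such units, followed by 10 days at 8. RPF came from polysomes pelleted through sucrose and digested with RNase If. The 4 groups, each of 3 libraries, were RPF HL, RPF LL, total RNA HL and total RNA LL. Libraries carry the numbers 1, 2 and 3 within a group, and the submitters describe the RPF libraries as biological replicates. The counts of these mixed tissues cannot separate fewer cells of a type from less RNA per cell.

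The Calvin-Benson cycle fixes CO2 in the chloroplast stroma. Phosphoglycerate is reduced to triose phosphate with ATP and NADPH from the light reactions, and most of the triose phosphate is rearranged to regenerate ribulose-1,5-bisphosphate. When Rubisco takes oxygen in place of CO2 it forms 2-phosphoglycolate, and photorespiration returns part of that carbon to the cycle through chloroplast, peroxisome and mitochondrion, releasing CO2 and ammonia at glycine decarboxylase. Several Calvin-Benson enzymes are switched on in the light by thioredoxin, and CP12 holds phosphoribulokinase and glyceraldehyde-3-phosphate dehydrogenase in an inactive complex in the dark.

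The RPF libraries held 1162389 to 2119227 protein-coding counts each and those of total RNA 2438332 to 16053563. Both RPF libraries with number 1 differed from the rest, with 12.2% of their counts in protein-coding genes in HL and 14.0% in LL, against 65.0% to 81.8% in the other 4 RPF libraries. Calvin-Benson members received 6938 to 13002 counts in each RPF library and 10162 to 50065 in each total RNA library, and photorespiration members 5300 to 9619 and 7663 to 36731. All 4 rosette markers (CAB1, RBCS1A, RCA and CA1) were detected in every library, and the 6 markers of other organs summed to at most 3 counts in a library. Marker sums are counts per 1e6 protein-coding counts (CPM), plastid genes included, with no further scaling of libraries. Plastid genes held 51.4% to 58.1% of protein-coding counts in RPF HL and 42.5% to 51.8% in RPF LL. Markers of phloem summed to 173 to 238 CPM in RPF HL and 227 to 359 CPM in RPF LL. Markers of epidermis held 285 to 306 CPM in RPF HL and 253 to 321 CPM in RPF LL, and those of guard cells 19.9 to 26.7 and 20.5 to 32.8 CPM. The part of these cell types in the results was not tested.

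The share of nuclear counts held by each pathway overlapped between the lights. Calvin-Benson members held 1.08%, 1.21% and 1.31% of nuclear protein-coding RPF counts in HL libraries 1, 2 and 3, and 1.07%, 1.13% and 1.25% in LL. The HL value was the higher in 3 of 3 pairs of the same number, the groups overlapped, and the means were 1.20% ± 0.117 in HL and 1.15% ± 0.0950 in LL (SD, n = 3 each). Taken of all protein-coding counts, plastid genes included, the mean difference of 0.0517 percentage points became -0.0540. Photorespiration members held 0.758%, 0.915% and 0.982% of RPF counts in HL and 0.790%, 0.877% and 0.997% in LL, also overlapping. In total RNA the Calvin-Benson share was 1.14%, 1.13% and 1.16% in HL and 1.22%, 1.08% and 1.34% in LL. The photorespiration share of total RNA was 0.833%, 0.843% and 0.915% in HL and 0.921%, 0.812% and 1.14% in LL. Both shares of total RNA were lower in HL in pairs 1 and 3 and higher in pair 2.

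Photorespiration members, 15 genes against 19, received fewer counts than Calvin-Benson members in every library. These are sums of raw counts, not adjusted for the number of genes or their span. The ratio of photorespiration to Calvin-Benson counts was 0.702, 0.759 and 0.748 in RPF HL and 0.740, 0.779 and 0.796 in RPF LL. In total RNA it was 0.734, 0.749 and 0.787 in HL and 0.754, 0.750 and 0.850 in LL. It was lower in HL in 3 of 3 pairs in either kind of library, by as little as 0.749 in HL against 0.750 in LL in pair 2 of total RNA, and the groups overlapped. These sums over chosen members were given no test.

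**Figure D1:**
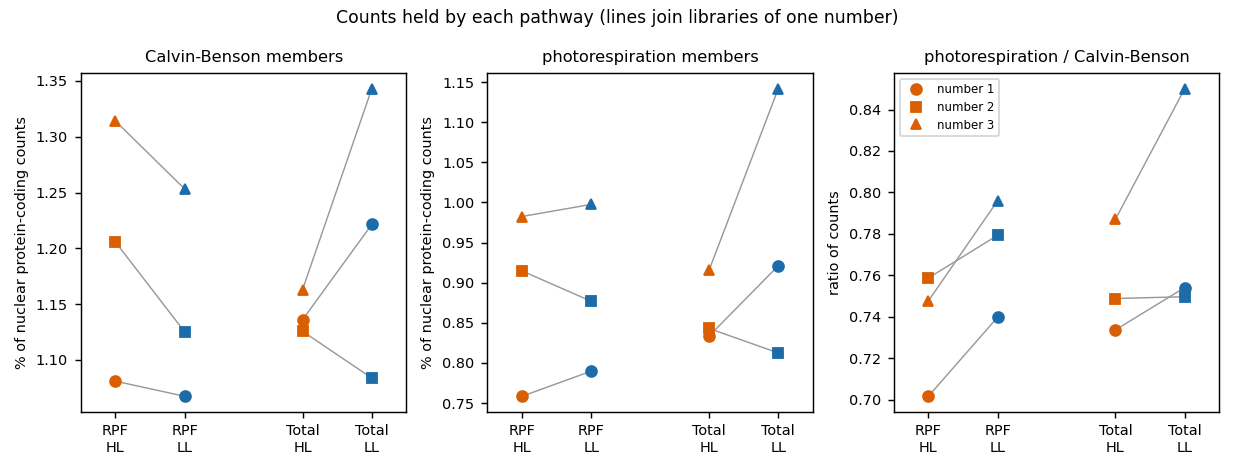
Share of nuclear protein-coding counts held by Calvin-Benson members (left, percent) and photorespiration members (middle, percent), and the ratio of photorespiration to Calvin-Benson counts (right), in each library. Orange marks HL, blue LL, and lines join libraries of one number. The ratio falls between 0.702 and 0.850 in all 12 libraries, and every line of the right panel is higher in LL.

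The members spanned a wide range of levels. Levels are given in CPM, the count scaled to 1e6 of the TMM-normalised library, where TMM is edgeR's scaling of libraries; levels of different genes are set side by side only per kilobase of gene span, introns included. In the reduction steps, glyceraldehyde-3-phosphate dehydrogenase is made of A and B subunits, and GAPA ranked 1 or 2 per kilobase in all 4 groups. It reached 376 ± 66.3 CPM per kb in RPF HL, 349 ± 69.1 in RPF LL, 274 ± 25.8 in total RNA HL and 300 ± 44.4 in total RNA LL (SD, n = 3 each). Of the A and B subunit counts per kilobase, GAPA held 44.1% ± 5.18 in RPF HL and 45.9% ± 5.15 in RPF LL. GAPA-2 held 32.9% ± 4.14 in RPF HL and 32.7% ± 3.50 in RPF LL, and GAPB held 23.0% ± 3.27 and 21.4% ± 1.88. The order of the 3 was the same in total RNA. GAPA and GAPA-2 are close copies, so the split between them is uncertain.

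Further along the cycle, phosphoglycerate kinase PGK1 stood at 166 ± 33.1 CPM per kb in RPF HL and 178 ± 50.7 in RPF LL, and AT1G56190 at 22.5 ± 2.89 and 22.7 ± 4.12. Of the plastid aldolases, which join triose phosphates, FBA2 held 65.1% ± 2.80 of aldolase RPF per kilobase in HL and 66.1% ± 4.26 in LL. FBA1 held 28.9% ± 3.92 in HL and 26.6% ± 5.50 in LL. PDE345 (FBA3), also an aldolase, held 6.01% ± 1.19 in HL and 7.28% ± 1.61 in LL. Each of these aldolase shares differed between lights by less than its SD in LL.

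Transketolase counts came almost wholly from one gene. The plastid transketolase TKL1 (AT3G60750), which moves 2-carbon units in the regeneration of ribulose bisphosphate, held 99.4% ± 0.267 of transketolase RPF per kilobase in HL and 99.6% ± 0.185 in LL, and TKL2 (AT2G45290) the rest. TKL1 alone took 14.8% to 22.2% of all Calvin-Benson RPF counts in a library, a share of raw counts not scaled to its span of 3457 bp. Per kilobase it ranked 4 among Calvin-Benson members in RPF HL and 3 in RPF LL. Its level was 1140, 1016 and 1027 CPM in RPF HL and 1264, 1023 and 1184 CPM in RPF LL. In total RNA it had 489, 368 and 450 CPM in HL and 672, 381 and 643 CPM in LL. HL was the lower in 3 of 3 pairs in either kind, and the groups overlapped.

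The 3 CP12 genes are short, with spans of 585 bp for CP12-1, 623 bp for CP12-2 and 601 bp for CP12-3. CP12-1 led the Calvin-Benson members per kilobase in RPF, at 403 ± 48.4 CPM per kb in HL and 408 ± 57.8 in LL. It held 79.1% ± 6.67 of CP12 RPF in HL and 80.9% ± 4.54 in LL, against 57.5% ± 9.86 of CP12 total RNA in HL and 58.2% ± 12.4 in LL. CP12-2 held 20.2% ± 6.78 of CP12 RPF in HL and 18.6% ± 4.76 in LL, against 42.2% ± 9.78 and 41.4% ± 12.4 of total RNA. CP12-3 was near the floor of detection, with 4, 5 and 1 RPF counts in HL and 1, 4 and 0 in LL.

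In photorespiration the peroxisomal serine:glyoxylate aminotransferase AGT was first per kilobase in all 4 groups, at 240 ± 62.9 CPM per kb in RPF HL, 215 ± 48.6 in RPF LL, 180 ± 33.7 in total RNA HL and 211 ± 45.7 in total RNA LL. The glutamate:glyoxylate aminotransferase GGT1 and the serine hydroxymethyltransferase SHM1 followed in total RNA. In RPF, GLDP1 joined them, the P-protein of glycine decarboxylase that removes CO2 from glycine. Its rank per kilobase was 3 in RPF HL, 2 in RPF LL and 10 in total RNA in either light. Between the P-protein genes, GLDP1 held 78.3% ± 5.07 of RPF per kilobase in HL and 76.7% ± 1.24 in LL, and GLDP2 held the rest. Between the glycolate oxidase genes, GOX1 held 64.3% ± 6.17 of RPF per kilobase in HL and 58.1% ± 5.35 in LL, and GOX2 held the rest. GOX1 and GOX2 lie next to each other on chromosome 3 and are close copies, so their split is uncertain.

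**Figure D2:**
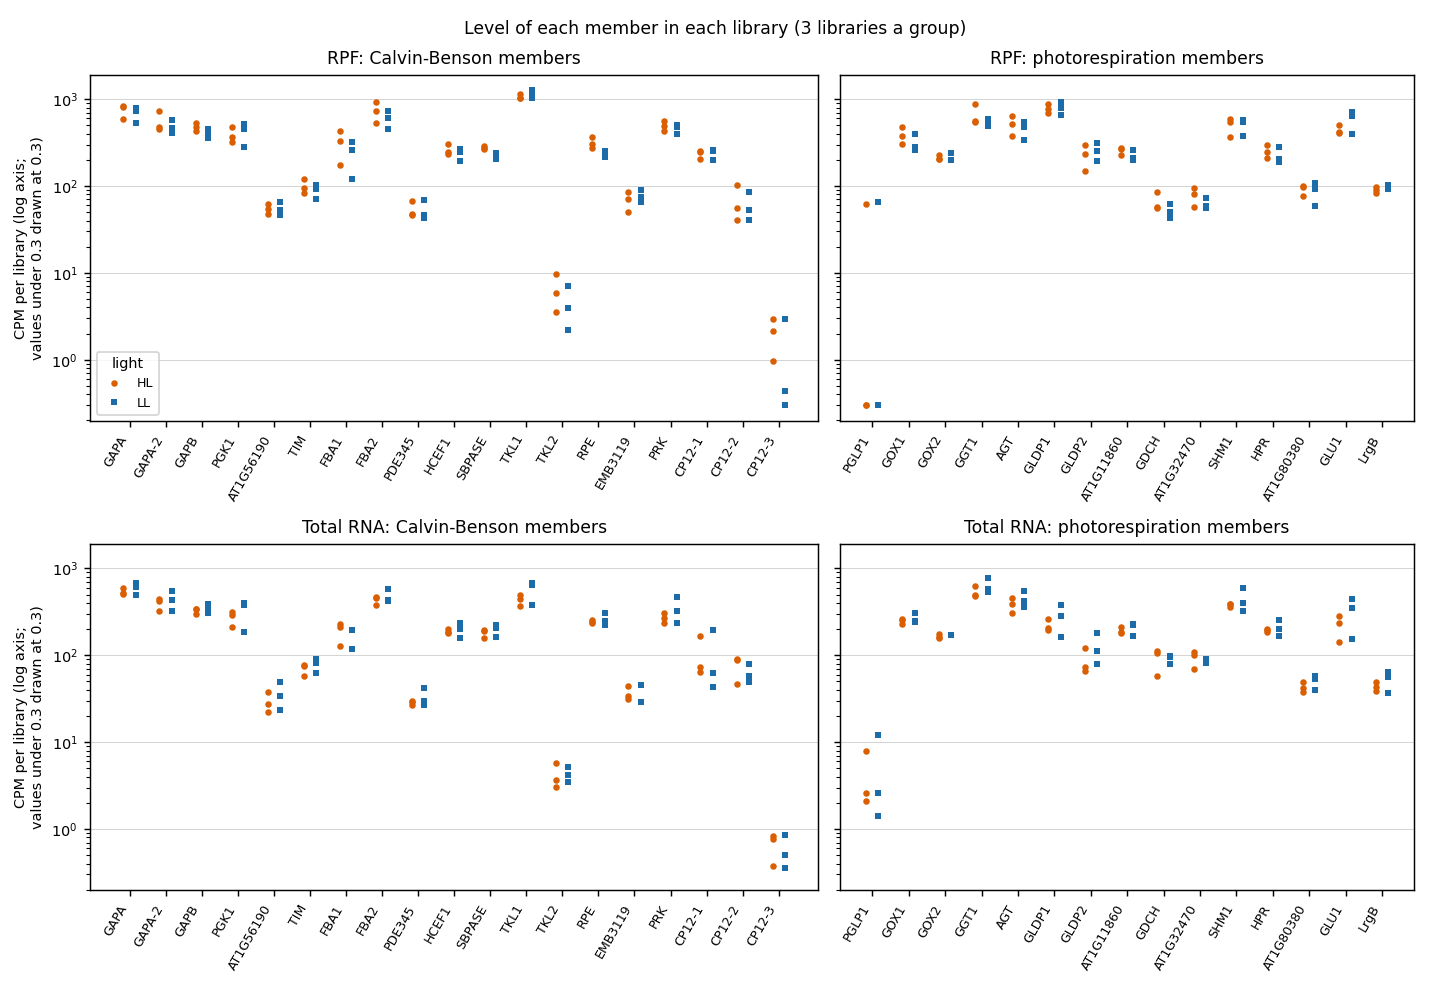
Level of each of the 34 members in each library, in CPM not scaled to gene span, on a log axis. RPF is above and total RNA below. Orange circles are the 3 HL libraries and blue squares the 3 LL libraries of a group. HL and LL points interleave for nearly all members, and CP12-3, TKL2 and, outside the number 1 RPF libraries, PGLP1 lie far below the others. CPM under the minimum named on the vertical axis is drawn at that minimum.

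After 10 min of high light no member passed the test in RPF. The edgeR quasi-likelihood test asked for a Benjamini-Hochberg adjusted p under 0.05 over all 10759 genes tested, and called 24 genes (0.223%), all higher. Of the 31 members tested, 17 of the Calvin-Benson cycle and 14 of photorespiration, 0 were called, and 0 had an unadjusted p under 0.05. TKL2 and CP12-3 had too few RPF counts to be tested, and PGLP1, with RPF counts in the number 1 libraries only, was also filtered out. DESeq2 and limma-voom also called 0 members, as did the fit with the library number as a block, in which 196 genes (1.82%) passed. With the block 8 of the 31 members, 5 of the Calvin-Benson cycle and 3 of photorespiration, had an unadjusted p under 0.05, against 10.2% of all genes tested.

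Estimated RPF changes were small and mostly positive. Among Calvin-Benson members 12 of 17 log2 changes were positive with a median of 0.13, and among photorespiration members 9 of 14 with a median of 0.11, against 49.6% positive and a median of -0.0025 over all genes tested. In 9 Calvin-Benson and 7 photorespiration members all 3 same-number pairs were positive, as in 16.2% of all genes tested. The medians leaned on single libraries. Without LL 2 they were 0.01 for the Calvin-Benson cycle and -0.03 for photorespiration, and without HL 3 they were 0.02 and 0.03. Without HL 2 they were 0.26 and 0.19, and without LL 3 they were 0.25 and 0.13. The 95% intervals of single members reached from -0.71 to 1.24 in the Calvin-Benson cycle and from -0.99 to 0.91 in photorespiration, so for the members with the widest intervals changes of that size were within the error.

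The smallest p in the Calvin-Benson cycle belonged to RPE, ribulose-5-phosphate epimerase of the regeneration steps. RPE had 307, 272 and 367 CPM in RPF HL and 255, 226 and 217 CPM in RPF LL. Every HL library lay above every LL library, and the estimated log2 change was 0.44 ± 0.24 (SE; unadjusted p = 0.0943, edgeR adjusted p = 1.00). SBPASE, the bisphosphatase that commits sedoheptulose bisphosphate to regeneration, had 274, 266 and 287 CPM in HL and 231, 204 and 242 CPM in LL, also without overlap, at a log2 change of 0.29 ± 0.23 (edgeR adjusted p = 1.00). RPE and SBPASE were the 2 of 17 tested Calvin-Benson members with HL above LL in all libraries, beside 4.63% of all genes tested. They were also the 2 members in which the light difference exceeded the range between numbers in RPF.

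GAPB followed, with 425, 479 and 531 CPM in RPF HL and 356, 386 and 451 CPM in RPF LL. Its 3 pairs differed by 0.25, 0.31 and 0.24 on the log2 scale, with overlapping groups and an estimate of 0.27 ± 0.24 (edgeR adjusted p = 1.00). FBA1 gave the smallest p with the number as a block. It had 175, 329 and 424 CPM in RPF HL and 121, 256 and 323 CPM in RPF LL. The numbers differed by more than the lights, and its change was 0.41 ± 0.38 without the block (edgeR adjusted p = 1.00) and 0.43 ± 0.14 with it (edgeR adjusted p = 0.0999).

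In photorespiration the smallest p belonged to GLU1, the ferredoxin-dependent glutamate synthase that reassimilates ammonia. GLU1 had 420, 413 and 501 CPM in RPF HL and 643, 392 and 709 CPM in RPF LL. HL was the lower in pairs 1 and 3, the groups overlapped, and the log2 change was -0.39 ± 0.28 (edgeR adjusted p = 1.00). GDCH, an H-protein of glycine decarboxylase that carries the aminomethyl group, had 84.4, 56.0 and 56.8 CPM in HL and 61.8, 50.2 and 42.4 CPM in LL, at 0.35 ± 0.25. AT1G32470 had 94.2, 57.8 and 80.3 CPM in HL and 72.8, 56.0 and 58.7 CPM in LL, at 0.30 ± 0.25. Both had overlapping groups and HL the higher in 3 of 3 pairs. GLDP2 and LrgB (PLGG1, the plastid glycolate and glycerate transporter) were the photorespiration members with HL the lower in 3 of 3 RPF pairs, at -0.15 ± 0.30 and -0.11 ± 0.22.

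The RPF log2 changes of the other photorespiration members had errors of similar size. SHM1, which makes serine from glycine in mitochondria, stood at 0.01 ± 0.28, and HPR, the peroxisomal hydroxypyruvate reductase, at 0.17 ± 0.26. AT1G11860 was at 0.20 ± 0.24 and AT1G80380 at 0.07 ± 0.27. The glycolate oxidase genes GOX1 and GOX2 were at 0.29 ± 0.27 and -0.09 ± 0.23. The aminotransferase genes GGT1 and AGT were at 0.33 ± 0.27 and 0.15 ± 0.28, and GLDP1 was at -0.04 ± 0.25. In the Calvin-Benson cycle HCEF1, the plastid fructose-1,6-bisphosphatase, was at 0.13 ± 0.25, TIM at 0.15 ± 0.24 and the kinase PGK1 at -0.09 ± 0.28. CP12-1 was at -0.02 ± 0.24, CP12-2 at 0.15 ± 0.36 and TKL1 at -0.13 ± 0.24. GAPA was at 0.11 ± 0.27, GAPA-2 at 0.20 ± 0.28 and the phosphoribulokinase gene PRK at 0.09 ± 0.24. FBA2 was at 0.29 ± 0.29, PDE345 at 0.01 ± 0.27, EMB3119 at -0.16 ± 0.25 and AT1G56190 at -0.02 ± 0.24. None of these passed, and HL and LL overlapped in each.

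Total RNA showed no member past the threshold either. Of 15701 genes tested 37 were called (0.236%), 35 higher and 2 lower, and of the 33 members tested 0 were called and 0 had an unadjusted p under 0.05; CP12-3 was not tested. DESeq2, limma-voom and the fit with the block, in which 130 genes (0.828%) passed, called 0 members as well. With the block 2 of the 33 had an unadjusted p under 0.05, against 7.19% of all genes tested. Here most estimates were negative, in 14 of 18 Calvin-Benson members with a median of -0.13 and in 13 of 15 photorespiration members with a median of -0.23, against a median of -0.01 over all genes. Pair 2 went the other way, with medians of 0.10 and 0.09, against -0.21 and -0.14 in pair 1 and -0.23 and -0.38 in pair 3. Without LL 3 the medians were -0.03 and -0.05, and without LL 2 they were -0.22 and -0.36.

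Among Calvin-Benson members TKL1 had the smallest p in total RNA, at -0.38 ± 0.30 (edgeR adjusted p = 1.00). PRK, phosphoribulokinase, had 267, 238 and 310 CPM in total RNA HL and 325, 235 and 470 CPM in LL. Its HL libraries lay within the LL range, and its change was -0.34 ± 0.30 (edgeR adjusted p = 1.00). CP12-2 stood at 0.28 ± 0.30. In photorespiration GLDP2 had 72.4, 66.6 and 121 CPM in total RNA HL and 112, 79.9 and 181 CPM in LL, lower in HL in 3 of 3 pairs, at -0.52 ± 0.34 (edgeR adjusted p = 1.00). GLU1 was at -0.52 ± 0.40 and LrgB at -0.26 ± 0.25, each with overlapping groups. The 95% intervals reached from -1.15 to 1.21 in the Calvin-Benson cycle and from -1.96 to 1.16 in photorespiration. In each pathway both ends came from the member with the widest interval. The narrowest intervals extended 0.51 to either side of the estimate in the Calvin-Benson cycle and 0.50 in photorespiration.

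The members also varied with the library number. The range between the means of the 3 numbers exceeded the HL to LL difference in 16 of 18 Calvin-Benson members and 14 of 14 photorespiration members in RPF, and in 19 of 19 and 15 of 15 in total RNA. Over all genes tested with counts in all 6 libraries it did so in 82.1% in RPF and 87.1% in total RNA, and a range over 3 means tends to exceed a difference of 2 means, so these counts are not a result about the members. The range between numbers was widest, at 1.77 on the log2 scale, for CP12-1 in total RNA, with 166, 72.6 and 65.0 CPM in HL and 196, 63.0 and 43.5 CPM in LL. The number 1 libraries were high in both lights. In RPF the same gene held between 200 and 263 CPM in all 6 libraries.

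Light and kind of library were then fitted jointly, to ask whether RPF changed relative to total RNA. The fit uses the same libraries as the 2 comparisons above and is not independent of them. The interaction, a change in translational efficiency, passed for 0 of 12789 genes (0.0%), of which 179 had an unadjusted p under 0.05, and DESeq2 and limma-voom called 0. None of the 33 members tested had an unadjusted p under 0.05, and 1 had with the block, against 4.16% of all genes tested. The estimates were positive in 15 of 18 Calvin-Benson members with a median of 0.24 and in 14 of 15 photorespiration members with a median of 0.27, against 52.3% positive and a median of 0.02 over all genes. Pair medians were 0.28, 0.13 and 0.37 for the Calvin-Benson cycle and 0.29, 0.01 and 0.47 for photorespiration. All 3 pairs were positive in 12 Calvin-Benson and 6 photorespiration members, and in 14.7% of all genes tested. The Calvin-Benson median was 0.41 without total RNA LL 2 or RPF LL 3 and 0.16 without RPF LL 2, and the photorespiration median was 0.42 without total RNA LL 2 and 0.09 without total RNA LL 3.

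The smallest p of the interaction belonged to RPE at 0.49 ± 0.33 and SBPASE at 0.40 ± 0.32 in the Calvin-Benson cycle, with PRK at 0.41 ± 0.39. In photorespiration GGT1 came first at 0.56 ± 0.39 (unadjusted p = 0.174, edgeR adjusted p = 1.00), then GOX1 at 0.38 ± 0.37 and AGT at 0.37 ± 0.41. GGT1 had 542, 558 and 874 CPM in RPF HL and 485, 499 and 588 CPM in RPF LL. In total RNA it had 480, 492 and 628 CPM in HL and 579, 534 and 782 CPM in LL. Its RPF was the higher in HL in 3 of 3 pairs and its total RNA the lower in 3 of 3, with overlapping groups in both. The 95% interval of the interaction for GGT1 ran from -0.27 to 1.38.

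**Figure D3:**
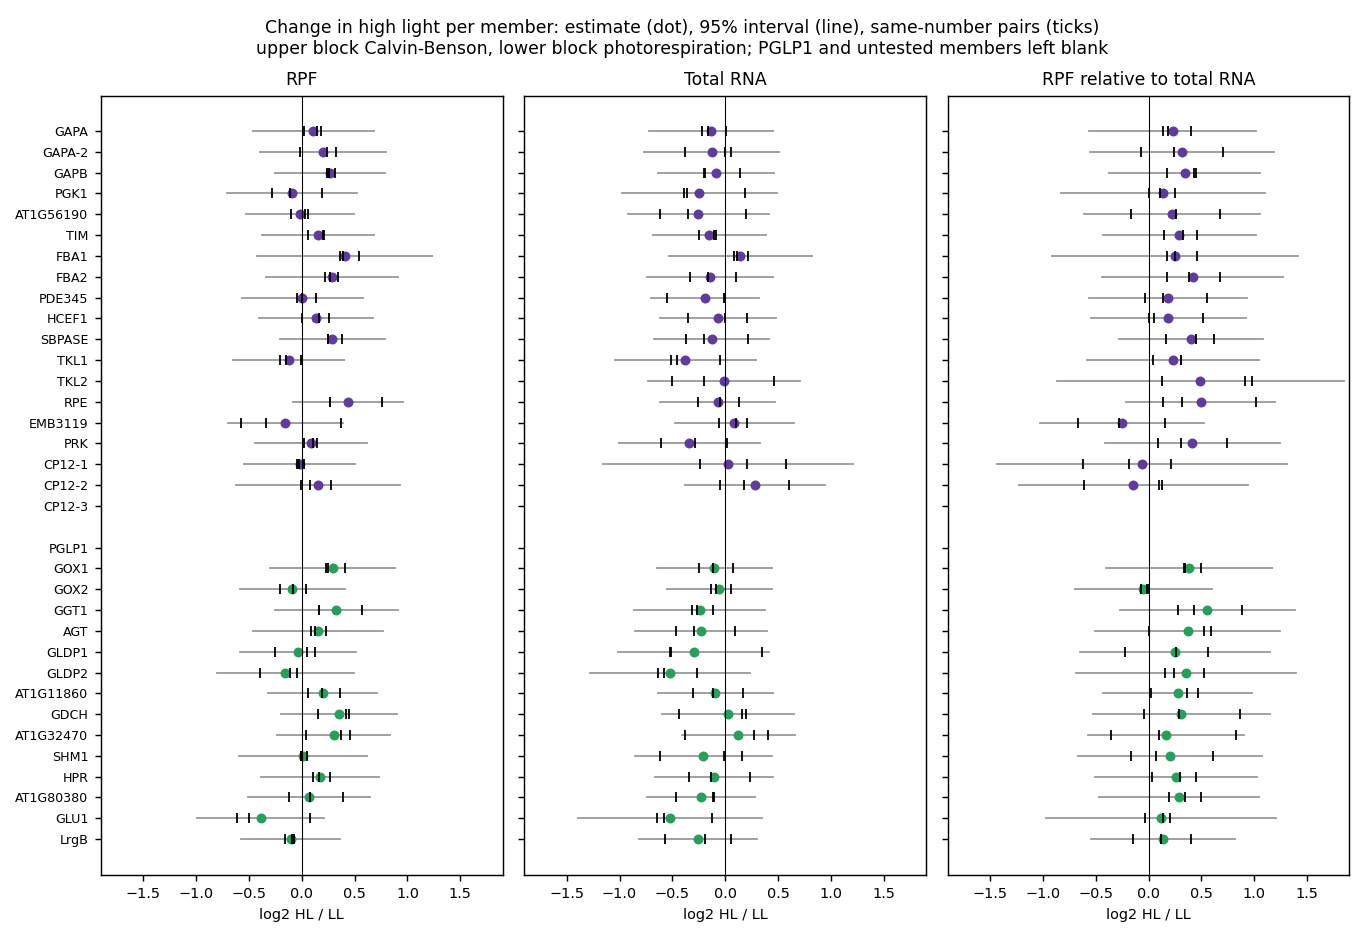
Log2 HL over LL per member in RPF (left), in total RNA (middle) and for RPF relative to total RNA (right), with Calvin-Benson members in the upper block and photorespiration members in the lower. Dots are edgeR estimates, lines 95% intervals and ticks the 3 same-number pairs. All drawn intervals cross 0; dots lie mostly right of 0 in RPF (21 of 31) and left of 0 in total RNA (27 of 33, counting PGLP1, which is not drawn).

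RPF was next set against total RNA within each light, which describes how much footprint a gene had for its message. Levels in this comparison are CPM scaled by TMM over all 12 libraries, on which the median of all genes was -0.03 in either light. Scaling each kind of library on its own placed that median at 0.41 in either light, so a log2 ratio is relative to other genes and the sign of small ratios turns with the scaling. Of 12789 genes tested 601 (4.7%) were higher and 218 (1.7%) lower in RPF than in total RNA in HL. In LL 633 (4.95%) were higher and 428 (3.35%) lower. Of the 33 members tested, 1 was higher and 0 were lower in HL, and 1 was higher and 2 were lower in LL, and all of these were photorespiration members. With each kind scaled on its own 9 members were higher and 0 lower in HL, beside 20.2% and 0.563% of all genes tested. In LL 5 were then higher and 1 lower, beside 19.7% and 1.18% of all genes tested. The median log2 ratio in HL was 0.15 for the Calvin-Benson cycle and -0.07 for photorespiration, and in LL it was -0.18 and -0.24.

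GLDP1 (chromosome 4, 15926670 to 15931332, minus strand, TAIR10) passed the test in either light. It had 569, 730 and 646 CPM in RPF HL and 231, 248 and 302 CPM in total RNA HL, and every RPF library lay above every total RNA library. RPF was higher by 1.32 ± 0.30 on the log2 scale (SE; edgeR adjusted p = 0.0157). In LL it had 551, 672 and 775 CPM in RPF and 331, 194 and 426 CPM in total RNA, again without overlap, and RPF was higher by 1.07 ± 0.30 (edgeR adjusted p = 0.0368). With the block both calls held (edgeR adjusted p = 0.00481 in HL and 0.0109 in LL). Leaving out 1 library ended the HL call in 3 of 12 cases, without total RNA HL 1 (edgeR adjusted p = 0.0721), RPF HL 2 (0.0757) or total RNA HL 2 (0.101). The LL call ended in 7 cases, without total RNA LL 1 (0.0679), total RNA HL 1 (0.0582), RPF LL 2 (0.0850), total RNA LL 2 (0.180), total RNA HL 2 (0.0606), RPF LL 3 (0.119) or RPF HL 3 (0.0509). Without all number 1 libraries the log2 ratios were 1.34 in HL (0.0665) and 1.23 in LL (0.0845).

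GDCH (chromosome 2, 14891102 to 14892218, plus strand) went the other way. It had 51.4, 42.4 and 35.6 CPM in RPF LL and 112, 117 and 88.9 CPM in total RNA LL, without overlap, and RPF was lower at a log2 ratio of -1.29 ± 0.29 (SE; edgeR adjusted p = 0.0138). In HL it had 70.3, 47.1 and 47.5 CPM in RPF and 125, 135 and 66.3 CPM in total RNA, at a log2 ratio of -0.98 ± 0.29 that missed the threshold (edgeR adjusted p = 0.0530) and passed with the block (0.0181). The LL call ended without RPF LL 2 (0.0556), total RNA LL 2 (0.0622) or RPF LL 3 (0.0716). With each kind of library scaled on its own the log2 ratio was -0.54 in HL (edgeR adjusted p = 0.187) and -0.85 in LL (0.0428).

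AT1G32470 (chromosome 1, 11739304 to 11740361, minus strand) had 60.5, 47.3 and 49.3 CPM in RPF LL and 97.1, 98.4 and 103 CPM in total RNA LL, without overlap. Its RPF was lower, at a log2 ratio of -0.92 ± 0.25 (edgeR adjusted p = 0.0338). In HL it had 78.4, 48.6 and 67.1 CPM in RPF and 118, 130 and 80.4 CPM in total RNA, at -0.76 ± 0.25 (edgeR adjusted p = 0.0762). The LL call ended in 7 of 12 cases of leaving out 1 library, without RPF LL 1 (0.0505), total RNA HL 1 (0.0517), RPF LL 2 (0.122), total RNA LL 2 (0.0961), RPF LL 3 (0.107), total RNA LL 3 (0.0805) or RPF HL 3 (0.0544), and also without all number 1 libraries (0.0697). With each kind of library scaled on its own it was -0.48 (0.174).

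Some further members did not pass in the test without the block but passed with the number as a block, a fit in which 6.81% of genes were higher and 3.53% lower in HL, and 7.07% higher and 4.72% lower in LL. TKL1 had 949, 855 and 858 CPM in RPF HL and 574, 443 and 515 CPM in total RNA HL, without overlap, at a log2 ratio of 0.80 ± 0.27 (edgeR adjusted p = 0.0861, and 0.0359 with the block). GLDP2 had 123, 196 and 250 CPM in RPF HL and 85.0, 80.2 and 139 CPM in total RNA HL, at 0.90 ± 0.34 (edgeR adjusted p = 0.126, and 0.0313 with the block). Both exceeded their total RNA in 3 of 3 HL pairs. Without the block TKL1 also passed with DESeq2 (adjusted p = 0.00757). Both passed with each kind scaled on its own (edgeR adjusted p = 0.00571 for TKL1 and 0.0147 for GLDP2). That scaling raised the log2 ratios of most genes, and called 20.2% of all genes tested higher in HL and 19.7% in LL. In LL the block added EMB3119, ribose-5-phosphate isomerase, at 0.68 ± 0.26 (edgeR adjusted p = 0.115, and 0.0452 with the block). DESeq2 with the block did not call it (adjusted p = 0.0730), nor did the block without number 1 (edgeR adjusted p = 0.0584). Without the block it passed with each kind scaled on its own (edgeR adjusted p = 0.00740) and without total RNA LL 1 (0.0492). The block also added GGT1 at -0.74 ± 0.27 (edgeR adjusted p = 0.0995, and 0.0428 with the block). GGT1 passed with DESeq2 without the block (adjusted p = 0.0286), but not with the block and without number 1 (edgeR adjusted p = 0.0901). With each kind scaled on its own the GGT1 log2 ratio in LL was -0.30 and did not pass (edgeR adjusted p = 0.462). EMB3119 shares 567 bp with a gene on the opposite strand, as do HCEF1 (167 bp) and AT1G32470 (23 bp), and counting was by strand.

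CP12-1 depended on the number 1 libraries. It had 207, 171 and 213 CPM in RPF HL and 196, 87.4 and 74.5 CPM in total RNA HL, and 211, 169 and 221 CPM in RPF LL and 230, 75.7 and 49.3 CPM in total RNA LL. In number 1 the 2 kinds were close, and in numbers 2 and 3 RPF was the higher in both lights. The log2 ratio was 0.72 ± 0.46 in HL (edgeR adjusted p = 0.372) and 0.77 ± 0.47 in LL (0.327), and without number 1 it was 1.26 (0.0367) and 1.65 (0.00744). CP12-2 stood at -0.65 ± 0.37 in HL and -0.51 ± 0.37 in LL, and neither passed.

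**Figure D4:**
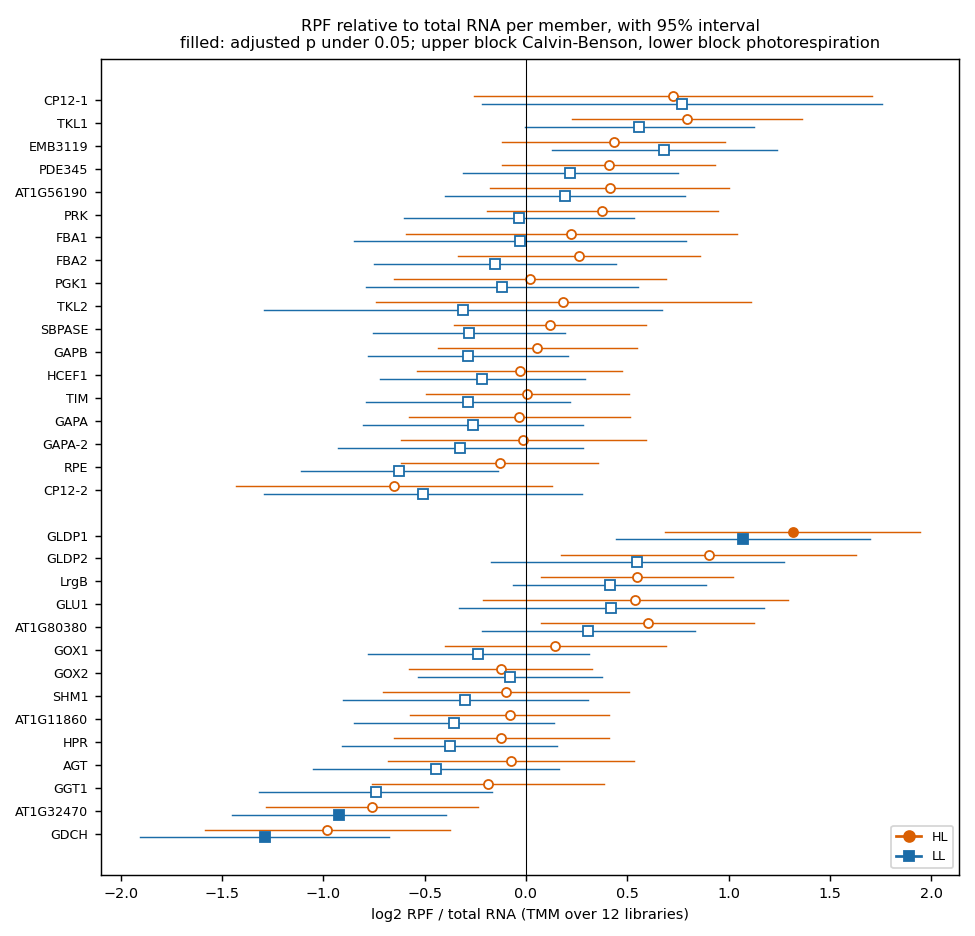
Log2 RPF over total RNA of each tested member except PGLP1 in HL (orange) and LL (blue), with 95% intervals, Calvin-Benson members in the upper block and photorespiration members in the lower; filled points passed the test. GLDP1 lies farthest right, at 1.32 in HL and 1.07 in LL, and GDCH farthest left, at -0.98 and -1.29.

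GLDP1, GLDP2 and GLU1, with positive log2 ratios in both lights, were the longest members, and GDCH and AT1G32470 the shortest of photorespiration. Gene span, introns included, was 4663 bp for GLDP1, 4826 bp for GLDP2 and 8591 bp for GLU1, against 1117 bp for GDCH and 1058 bp for AT1G32470. Across the 15 photorespiration members, PGLP1 included, span and log2 ratio correlated at r = 0.62 and rho = 0.52 in HL and at r = 0.62 and rho = 0.65 in LL. Across the 18 Calvin-Benson members the values were r = 0.20 and rho = 0.01 in HL and r = -0.17 and rho = -0.28 in LL. Over all 12789 genes tested they were 0.23 and 0.33 in HL and 0.25 and 0.36 in LL. These are descriptions across genes measured in the same libraries, and genes are not independent replicates.

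**Figure D5:**
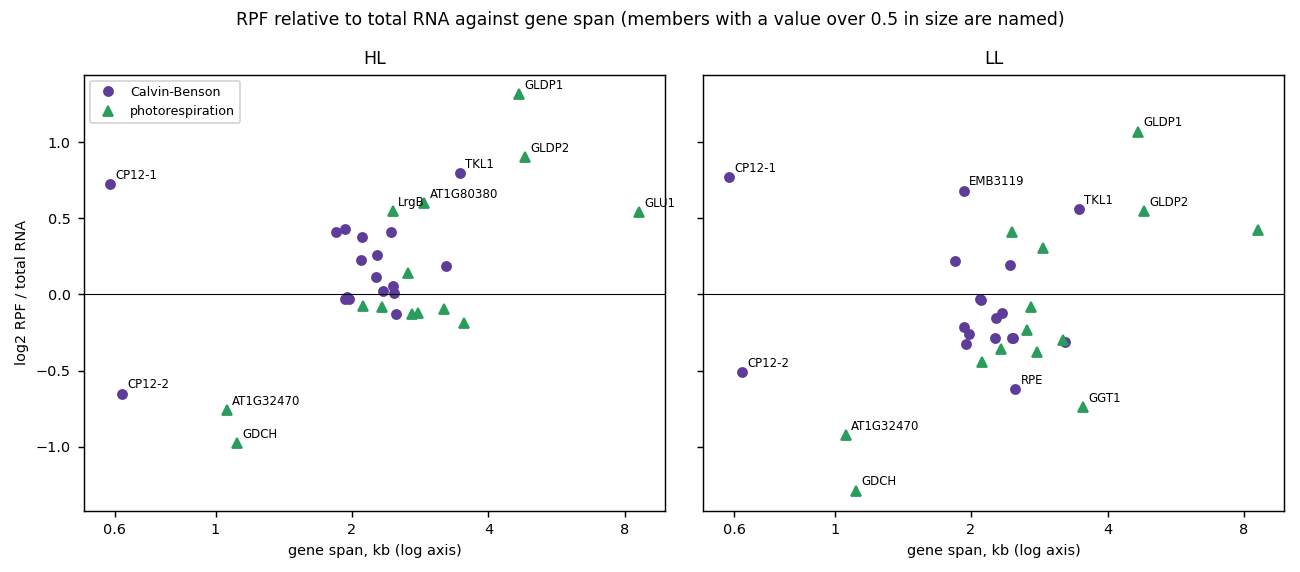
Log2 RPF over total RNA against gene span in kb (log axis), in HL on the left and LL on the right. Each point is a tested member, and PGLP1, which the correlations in the text include, is not drawn. In either light GDCH and AT1G32470 sit at the short end below 0 and GLDP1 at the long end above it, while CP12-1, at 585 bp, is short and lies above 0.

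The phosphoglycolate phosphatase gene PGLP1 could not be followed across libraries. It had 116, 0 and 0 RPF counts in HL and 151, 0 and 0 in LL. Its total RNA counts were 106, 27 and 17 in HL and 6, 14 and 103 in LL. AT5G36790 showed the same pattern, with 125, 0 and 0 RPF counts in HL and 134, 0 and 0 in LL. In 32 of the 3683 genes with at least 50 counts in both number 1 RPF libraries, the other 4 RPF libraries were at 0. Summed over PGLP1 and AT5G36790 the total RNA counts were 170, 45 and 67 in HL and 12, 33 and 116 in LL. How reads common to both genes were assigned was not tested.

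Other genes around the pathways were compared in the same way. Of 18 further photorespiration genes, 12 were tested in RPF and 15 in the other comparisons, and 0 passed between lights, with median log2 changes of 0.05 in RPF, 0.06 in total RNA and 0.02 in the interaction. Between RPF and total RNA, 3 of the 15 were higher in RPF in HL and 2 in LL, beside 4.7% and 4.95% of all genes tested. DiT1, the plastid oxoglutarate/malate translocator, had 120, 194 and 173 CPM in RPF HL and 36.8, 37.4 and 25.6 CPM in total RNA HL, without overlap, and RPF was higher by 2.28 ± 0.29 on the log2 scale (edgeR adjusted p = 0.000373). In LL it was higher by 2.12 ± 0.30 (edgeR adjusted p = 0.0009).

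DIT2.1, the plastid glutamate/malate translocator that works with DiT1 in ammonia reassimilation, had 72.1, 56.1 and 80.2 CPM in RPF HL and 16.4, 11.5 and 11.3 CPM in total RNA HL. Its RPF was higher by 2.40 ± 0.32 in HL (edgeR adjusted p = 0.000482). In LL it had 66.0, 70.0 and 77.2 CPM in RPF and 29.7, 11.6 and 11.7 CPM in total RNA, and RPF was again higher (edgeR adjusted p = 0.00148). Both translocators stayed past the threshold in 12 of 12 cases of leaving out 1 library. The mitochondrial lipoamide dehydrogenase mtLPD1, the L-protein of glycine decarboxylase, was higher in RPF by 0.99 ± 0.27 in HL (edgeR adjusted p = 0.0408), a call that ended in 8 of 12 such cases with an adjusted p of up to 0.196. With the block it also passed in LL, at 0.74 (edgeR adjusted p = 0.0376, against 0.113 without the block), a call that DESeq2 with the block did not make (0.0514). Catalase CAT2 passed in HL with the block, at 0.89 (edgeR adjusted p = 0.0169, against 0.385 without it), and did not pass with the block and without number 1 (0.0611).

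The 4 Rubisco small-subunit genes and the activase gene RCA, 5 in all, had positive RPF estimates in HL, with a median of 0.48, and 0 passed. With the block, which called 1.82% of all genes tested in RPF, RBCS2B, at 0.55 (edgeR adjusted p = 0.0209), and RBCS3B, at 0.47 (0.0335), were called. DESeq2 with the block did not call them (0.421 and 0.342). These small-subunit genes are near-identical copies, so the split of reads between them is uncertain. Of 13 cytosolic counterparts of the members tested in RPF, 0 passed and the median was 0.02. With the block FBA6, at 0.67 (edgeR adjusted p = 0.00409), FBA5, at 0.59 (0.00409), and PGK, at 0.55 (0.0419), were called, beside the same 1.82% of all genes. DESeq2 with the block called none of the 3 (0.189, 0.102 and 0.933). Between RPF and total RNA 0 of 14 cytosolic genes passed in either light without the block. With the block 6.81% of all genes tested were higher and 3.53% lower in HL, and 7.07% higher and 4.72% lower in LL. Of the cytosolic genes 0 then passed in HL. In LL RPI2 was higher, at 1.15 (edgeR adjusted p = 0.0479), and FBA7, at -0.85 (0.0474), and FBA5, at -0.75 (0.0365), were lower. Of these, DESeq2 with the block called FBA5 (0.0183) and not RPI2 (0.0519) or FBA7 (0.137), and the block without number 1 called RPI2 (0.0155) and not FBA7 (0.210) or FBA5 (0.136).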

How the data were processed

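RPF and total RNA libraries of Arabidopsis rosettes were analysed from counts per gene that the authors deposited, 1 file per library. Per the file headers the authors counted with featureCounts 1.5.0-p1, by strand (setting 1 for RPF and 2 for total RNA), over whole gene spans of TAIR10. The submitters' processing notes name FastQC 0.11.5, cutadapt 1.9.1, Bowtie2 2.2.9 and Subread 1.4.5, without their settings. Values were used as raw counts, with no unassigned category among the rows.

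Counts of protein-coding genes were filtered with filterByExpr, scaled with TMM and tested with edgeR 4.0.16 (quasi-likelihood test, R 4.3.3). HL and LL were compared within RPF (6 libraries) and within total RNA (6), and RPF with total RNA over all 12, with TMM over the 12 for the ratio and within each kind for the interaction. Benjamini-Hochberg adjusted p-values cover all genes tested, with a threshold of 0.05. Intervals are 95%. DESeq2 1.42.0 and limma-voom (limma 3.58.1), other filters and scalings, nuclear genes only, each library left out, and the library number as a block were alternatives. The scripts were tested on simulated data.

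Same-numbered HL and LL libraries deviated together from their group means (r = 0.49, 0.45 and 0.30 in RPF and 0.44, 0.51 and 0.37 in total RNA). Same-numbered RPF and total RNA libraries did so at r = 0.13 to 0.27. From this check numbers were taken as pairs where pairs are described. The main tests and their intervals did not use the pairs, and the number entered only as a block in alternative fits. Intervals and p-values measure the spread between these libraries only. The labels do not say that total RNA libraries came from separate plants.

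Named were members past the threshold in a comparison, otherwise the 3 members of a pathway with the smallest p, the 3 most counted members, members called only with the block, and the sets of related genes; of other lists, members past the threshold. The members and lists were chosen with earlier results of these data known. Names came from the RefSeq gene table. Members with no name there were given no role, and no sequence is shown.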

Additional observations from a re-analysis of the deposited data

Results flagged for a closer look

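TIM, the plastid triose phosphate isomerase, and GGT1 moved in opposite directions in the 2 kinds of library, with HL above LL in 3 of 3 RPF pairs and below it in 3 of 3 total RNA pairs. TIM had 95.8, 82.8 and 120 CPM in RPF HL and 92.1, 71.3 and 104 CPM in RPF LL, and 77.4, 57.8 and 75.6 CPM in total RNA HL and 82.4, 62.3 and 90.0 CPM in total RNA LL. The difference between the 2 log2 changes was 0.29 ± 0.34 for TIM (edgeR adjusted p = 1.00) and 0.56 ± 0.39 for GGT1 (edgeR adjusted p = 1.00). Neither passed the test of the difference.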

How the results depend on the processing

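For the members' single values, 3356 of 3426 alternative results stayed on the same side of the threshold, and 374 of 452 summaries stayed close to their value. Nearly all of these single values belonged to members not called in the main fit. Of 24 alternatives for each call, GLDP1 held in 20 in HL and 16 in LL. In LL the GDCH call held in 21 of 24 and that of AT1G32470 in 15. A change of sign was counted only where the main or the alternative fit passed the threshold, so direction was not compared for the other values. No alternative called a member between lights. The median RPF change of photorespiration members was 0.054 with no filter, 0.086 with a stricter filter, 0.14 without number 1 and 0.15 with the replicate block and without number 1. With 1 library left out, RPF medians ran from 0.0055 to 0.26 for the Calvin-Benson cycle and -0.030 to 0.19 for photorespiration, and the Calvin-Benson interaction median from 0.16 to 0.41.

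In HL, members higher in RPF than in total RNA numbered 2 with DESeq2, 3 with the replicate block, with DESeq2 and the block or with nuclear genes and the block, 4 with the block and without number 1, 9 with TMM within each kind, and 0 to 1 with 1 library left out. Of all genes tested the same fits called 6.76% higher with DESeq2, 5.97% to 6.81% with the 3 fits with the block, 6.36% with the block and without number 1, 20.2% with TMM within each kind and 1.70% to 4.86% with 1 library left out. Members lower in HL numbered 2 with DESeq2, 1 with no filter (beside 431 of 22665 genes), 1 with each of the 3 fits with the block, 2 with the block and without number 1, and 0 to 1 with 1 library left out. The 2 with the block and without number 1 were GDCH and PGLP1, which is taken up below. The shares of all genes called lower were 2.67% with DESeq2, 1.99% to 3.53% with the 3 fits with the block, 3.81% with the block and without number 1 and 0.159% to 1.68% with 1 library left out. In LL, higher members numbered 2 with each fit with the block, 5 with TMM within each kind and 0 to 2 with 1 library left out, against 5.99% to 7.07%, 19.7% and 1.42% to 5.40% of all genes. Lower ones numbered 4 with DESeq2, 1 without number 1 or with TMM within each kind, and 0 to 2 with 1 library left out, against 4.34% of all genes with DESeq2, 1.52% without number 1, 1.18% with TMM within each kind and 0.462% to 3.23% with 1 library left out.

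With TMM within each kind the median log2 ratios were 0.59 (Calvin-Benson) and 0.36 (photorespiration) in HL and 0.25 and 0.20 in LL. Over all genes tested the median under that scaling was 0.41 in either light. The Calvin-Benson LL median was -0.11 with a stricter filter, -0.089 without number 1 and -0.046 with the block and without number 1. With 1 library left out it ran from -0.34 to -0.051, the photorespiration LL median from -0.37 to -0.095, and the photorespiration HL median from -0.075 to 0.084. With the block and without number 1 PGLP1 turned to -6.77 in HL (edgeR adjusted p = 0.0301) and -8.28 in LL (0.00152), since those RPF libraries hold 0 counts. Both values passed the threshold, but with 0 RPF counts they measure no ratio.

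Of all protein-coding counts, the HL minus LL share in RPF was -0.0540 points for the Calvin-Benson cycle and -0.0611 for photorespiration (main -0.00283). With 1 library left out the differences ran from -0.00524 to 0.111 and from -0.0520 to 0.0605. Other causes were not tested. Fits without all number 1 libraries, with DESeq2 and the block, and with nuclear genes and the block were chosen after seeing the data. The block changed no other call of a member. Counting error limits CP12-3 and TKL2 in RPF, and PGLP1 had RPF counts in the number 1 libraries only.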
